A study of Caenorhabditis elegans with 2 samples.

Results

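The tRNA genes of chromosome X were examined for binding of the tagged zinc finger protein SPR-3 in Caenorhabditis elegans. They comprise every gene of biotype tRNA on X in the Ensembl annotation of assembly WBcel235, and were chosen by annotation alone. There are 276 of them among 612 nuclear tRNA genes (45.1%), on a chromosome that makes up 17.7% of the nuclear genome, and the remaining 336 lie on the autosomes. Their median length is 72 bp (64 to 120 bp), and 136 lie on the plus strand. They carry 20 isotypes, and 3 genes have no isotype in RefSeq.

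SPR-3 binding was measured by chromatin immunoprecipitation and sequencing (ChIP-seq) in 1 group of whole animals, with 2 biological replicates. The animals were L4 larvae of strain OP703, both sexes together, given as 49 hours old and synchronised by starvation as L1 larvae. OP703 carries the unc-119(tm4063) mutation and the transgene wgIs703, which holds spr-3::TY1::EGFP::3xFLAG and a functional unc-119(+) copy, and chromatin was pulled down with an antibody against GFP. No second condition and no untagged strain were among the samples, so the signal that the antibody gives at tRNA genes without the tagged protein was not measured. The chromatin came from whole larvae, so all tissues contributed. Both replicates and the pool used the same control, per the notes in the deposit.

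tRNA genes are transcribed by RNA polymerase III. Their promoter lies inside the gene: the A box and the B box, which also encode parts of the D and T arms of the tRNA, are bound by the factor TFIIIC, and TFIIIC recruits TFIIIB and the polymerase to the start. SPR-3 is known from genetic screens in the worm, in which its loss suppresses the egg-laying defect of mutants of the presenilin gene sel-12. In this species tRNA genes occur as families of identical copies, often scattered over several chromosomes.

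The sequences of 9 X tRNA genes on which the results turn are given 5′ to 3′ from the RefSeq WBcel235 assembly. Capitals mark the best match to the A box (TGG, any 3 bases, AGT, any base, G) and to the B box (GGTTCGA, any 2 bases, CC) where it had at most 1 mismatch on the sense strand. The boxes did not overlap in any of them. The first pair shares the highest SPR-3 signal of all X tRNA genes: F15G9.t1, alanine, anticodon TGC, at chrX:9743589-9743660 on the plus strand, and F15G9.t2, alanine, AGC, at chrX:9743747-9743818 on the plus strand.

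F15G9.t1: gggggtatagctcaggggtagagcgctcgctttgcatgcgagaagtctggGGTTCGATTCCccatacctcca
F15G9.t2: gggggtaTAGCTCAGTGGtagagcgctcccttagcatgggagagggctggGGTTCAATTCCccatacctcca

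The highest gene that shared its summit with no other tRNA gene was C04A11.t1, leucine, CAA, at chrX:13665555-13665673 on the plus strand. It is shown with its intron, which is spliced out of the precursor tRNA.

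C04A11.t1: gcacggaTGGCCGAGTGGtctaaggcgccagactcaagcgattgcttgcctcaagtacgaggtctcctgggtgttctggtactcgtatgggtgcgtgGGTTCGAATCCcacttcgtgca

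F46G11.t1, proline, TGG, at chrX:5801472-5801543 on the plus strand, stands for the largest family of identical copies on X. C16B8.t2 at chrX:3970096-3970167 and C16B8.t3 at chrX:3970265-3970336, both proline, AGG, on the plus strand, are its relatives. The sequence of each is held by no other annotated nuclear tRNA gene. F46G11.t1 differs from C16B8.t2 by 5 edits (93.1% identity) and from C16B8.t3 by 4 edits (94.4%), and C16B8.t2 and C16B8.t3 differ from each other by 1.

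F46G11.t1: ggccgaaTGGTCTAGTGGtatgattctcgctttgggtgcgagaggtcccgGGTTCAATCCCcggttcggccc
C16B8.t2: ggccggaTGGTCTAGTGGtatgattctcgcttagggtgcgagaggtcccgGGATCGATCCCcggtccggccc
C16B8.t3: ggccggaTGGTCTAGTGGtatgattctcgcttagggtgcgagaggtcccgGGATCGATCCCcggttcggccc

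C18A11.t2, arginine, ACG, at chrX:8036685-8036757 on the minus strand, and C04E7.t1, leucine, AAG, at chrX:353255-353336 on the minus strand, represent the 2 large families whose identical copies all lie on X. F28H6.t2, histidine, GTG, at chrX:14135045-14135116 on the plus strand, belongs to one of the largest clusters.

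C18A11.t2: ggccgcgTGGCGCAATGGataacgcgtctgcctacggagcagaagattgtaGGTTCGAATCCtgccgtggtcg
C04E7.t1: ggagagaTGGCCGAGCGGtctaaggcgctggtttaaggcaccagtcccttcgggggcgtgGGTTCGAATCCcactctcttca
F28H6.t2: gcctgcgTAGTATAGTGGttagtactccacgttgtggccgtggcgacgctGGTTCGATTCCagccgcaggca

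X tRNA genes and autosomal tRNA genes lay next to SPR-3 peaks at similar rates. A gene was said to carry a peak when the summit of an interval lay within 200 bp of it, in the authors' optimal list thresholded by irreproducible discovery rate (IDR). That list holds 945 intervals of the 30000 pooled candidates. Of the X tRNA genes, 93 carried a peak (33.7%, exact 95% interval 28.1 to 39.6%), against 105 of 336 autosomal tRNA genes (31.2%, 26.3 to 36.5%). Among all 46890 annotated nuclear genes, 1264 did so (2.70%), and of all possible placements of a 72-bp gene on X, 0.500% would. The X and autosomal intervals overlapped. Intervals count genes and cover counting error among genes only, since genes are not replicates.

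A weaker candidate lay near most of the remaining genes. A pooled candidate summit was within 200 bp of 202 X tRNA genes (73.2%, 67.5 to 78.3%), against 250 autosomal ones (74.4%, 69.4 to 79.0%). The share was 32.0% over all nuclear genes and 12.3% over all placements on X. The candidate lists hold background as well as peaks by the authors' description, so a candidate alone is not a peak. No candidate of any list came near 46 X tRNA genes, and 28 had one in a replicate list but none in the pool.

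Among X tRNA genes with a candidate, the pooled signal spanned about an order of magnitude, down to the lower limit of the list. Signal is the value the authors' caller gave an interval for ChIP against control, and is compared here only within 1 list. Over the 202 X genes with a candidate it had a median of 130.1 (43.52 to 424.7), against 120.4 (43.56 to 361.6) over the 250 autosomal genes and 59.93 over all pooled candidates. The lowest signal of any pooled candidate was 43.37, so the lowest values on X and the autosomes lie where the list ends. Over the genes that carried a peak the median was 191.4 on X, against 185.5 on the autosomes. The optimal list begins at a signal of 138.0, so that carrying a peak and having a high pooled signal are one measurement.

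The 93 X genes were served by 80 distinct summits, of which 66 lay near 1 tRNA gene and 14 near 2. These were 41.9% of the 191 thresholded intervals on X. The highest of them ranked 62 in the pooled list. Their median signal was 190.6, against 184.8 (138.2 to 789.8) for the other 111 thresholded summits on X, and the median width was 430 bp in both sets. Of the 80, 13 also lay in the promoter region of a protein-coding gene, taken from 1000 bp before its start to 200 bp past it. No share for other X summits is set beside this count, so whether it is high or low is not known. The authors' −log10 q-values ran from 1.70 to 3.10, and 57 of the 80 had the highest value, so q-values hardly ordered them.

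The genes of highest signal came from many isotypes. The alanine pair F15G9.t1 and F15G9.t2, 86 bp apart in an intron of him-4, which encodes the extracellular matrix protein hemicentin, shared a summit between them with a pooled signal of 424.7. In the replicates this summit had 221.6 in replicate 1 and 195.8 in replicate 2. The sequences of the pair are 90.3% identical. Next came M02F4.t1, glycine, TCC, and M02F4.t2, glutamate, CTC, which are transcribed away from each other and shared a summit of 409.2, with 204.1 in replicate 1 and 212.8 in replicate 2. C04A11.t1, the leucine gene with an intron, had 395.4, with 223.6 in replicate 1 and 178.5 in replicate 2. The divergent proline pair F46G11.t1 and F46G11.t2 had 347.3, with 169.3 in replicate 1 and 183.1 in replicate 2.

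F41D9.t3, asparagine, lies in an intron of sulp-3, a gene of the sulfate transporter family, on the opposite strand. Its pooled signal was 333.5, with 170.0 in replicate 1 and 163.8 in replicate 2. C18A11.t2, arginine, ACG, had 323.4, with 150.2 and 174.1 in replicates 1 and 2. C28G1.t1, glutamate, TTC, is the sole X tRNA gene that overlapped an exon of a protein-coding gene, C28G1.2, and had 312.9, with 140.5 and 170.0. C40H5.t1, leucine, TAA, had 294.0, with 158.0 and 137.3, and C02B4.t1, isoleucine, TAT, had 284.4, with 145.7 and 148.3. R04D3.t2, valine, TAC, closed the 10 highest groups at 278.1, with 135.5 and 151.8. The 10 single genes of highest signal, from the F15G9 pair to C28G1.t1, ranked within the first 172 candidates of replicate 1 and the first 119 of replicate 2.

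The boundary of the list ran through genes of near-equal signal. Just inside it were K11E4.t5 and K11E4.t6, lysine, CTT, in an intron of pix-1, sharing a summit of 138.9. C30E1.t1, glycine, at 138.6 and F43C9.t1, lysine, at 138.3 were the lowest. Just outside were F42D1.t1, cysteine, at 136.1, T08A9.t1, alanine, at 135.7 and F18G5.t1, alanine, at 134.2. In replicate 1, F42D1.t1 had 63.79 and F43C9.t1 had 62.86, and in replicate 2 they had 74.71 and 74.52, so a gene on each side of the limit had the same level in both replicates. The distance limit was met by few genes: F48E3.t1 had its pooled summit 197 bp away, the widest distance inside, and F38E9.t2 had it at 207 bp, the closest outside. For thresholded summits these were K01A12.t2 at 194 bp and ZK154.t4 at 219 bp. The genes outside had a median distance of 773 bp to the nearest pooled summit.

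Signal at X tRNA genes was correlated between the replicates. A candidate summit was near 201 X genes in replicate 1 (32.3% of all nuclear genes had one) and near 199 in replicate 2 (32.5% of all nuclear genes). It was near 174 in both, 27 in replicate 1 alone, 25 in replicate 2 alone and 50 in neither. Across the 174 genes Spearman's rho was 0.692 and Pearson's r of log2 signal 0.712, given as a description since the points share a control and, in families, their sequence. Over the 156 distinct pairs of summits among them rho was 0.676. The nearest summits of the replicates were a median of 39.5 bp apart, and 103 of the 174 pairs (59.2%) lay within 50 bp.

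The high-ranking candidates of each replicate were taken as its 945 highest, the length of the optimal list. They lay near 84 X tRNA genes in replicate 1 (30.4%), against 92 autosomal ones (27.4%) and 2.62% of all nuclear genes. They lay near 85 X tRNA genes in replicate 2 (30.8%), against 99 autosomal ones (29.5%) and 2.59% of all nuclear genes. Both replicates had one at 60 X genes (21.7%), against 70 autosomal genes (20.8%) and 1.79% of all nuclear genes. Of the 93 X genes with a peak, 60 were high-ranking in both replicates, 30 in 1 and 3 in neither, and 91 had some candidate in both. No X gene without a peak was high-ranking in both, and 19 were in 1. The pool is derived from these same replicates, so this overlap is not independent support for the peaks.

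**Figure D1:**
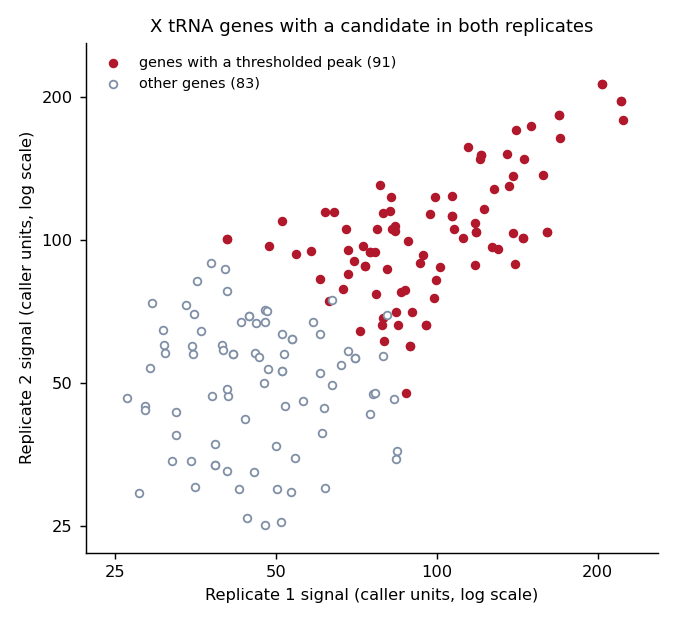
Signal in replicate 1 (x axis) and replicate 2 (y axis) for the 174 X tRNA genes with a candidate summit within 200 bp in both, in caller units on log scales; filled points are the 91 genes that carry a thresholded peak and open points the other 83. The genes with a peak fill the upper right, up to 223.6 in replicate 1 and 212.8 in replicate 2, and mix with the others near the middle of the plot.

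Summits of the genes with a peak lay close to the gene body. Measured along the gene's strand from its first base, the nearest pooled summit had a median position of 33 bp (quartiles -27.5 and 66.8 bp, n = 202 genes). The window reaches equally far on both sides of a gene, so summits spread evenly over it would have a median near the middle of the gene too. Among the 93 genes with a peak, 37 had the nearest thresholded summit inside the gene, 33 had it upstream of the 5′ end and 23 had it past the 3′ end. It was within 50 bp of 67 genes, within 100 bp of 82 and farther than that from 11. The positions within 50 bp make up 36.4% of the window around a gene of median length. In replicate 1 the median position was 28 bp (n = 201) and in replicate 2 it was 27 bp (n = 199). At this resolution, with intervals of 430 bp, the data do not separate the A box from the B box or either from the start of the gene.

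**Figure D2:**
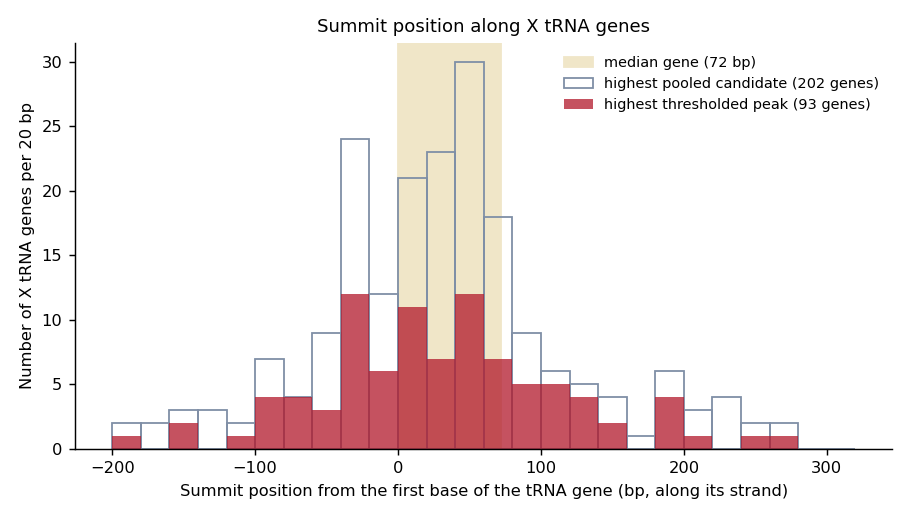
Position of the highest summit along X tRNA genes, in bp from the first base of the gene in the direction of transcription, as the number of genes per 20 bp; filled bars are the 93 genes with a thresholded peak, outlined bars the 202 genes with a pooled candidate, and the shaded band a gene of the median length of 72 bp. Most summits fall on the gene or in the 50 bp beside it, with a tail on both sides.

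Most X tRNA genes held both internal promoter boxes, and the share with a peak was similar with and without a B box match. An A box with at most 1 mismatch was found in 267 of 276 X genes, against 313 of 336 autosomal genes, and a B box in 238 X genes, against 298 autosomal ones. Over 246096 windows of 72 bp along X the same rule found an A box in 6.42% on the forward and 6.35% on the reverse strand, and a B box in 0.282% and 0.271%. On the opposite strand of the gene 37 X genes had a B box match. Of the X genes with a B box match, 80 of 238 carried a peak (33.6%, 27.6 to 40.0%), and of those without one 13 of 38 did (34.2%, 19.6 to 51.4%). The X genes without a match included all 15 glutamine genes, so the split is in part one by isotype. On the autosomes 96 of 298 genes with a match carried a peak (32.2%, 26.9 to 37.8%), against 9 of 38 without (23.7%, 11.4 to 40.2%). With an exact B box the count on X was 57 of 177 and with 1 mismatch 23 of 61. F15G9.t1, of the highest pair, had 2 mismatches to the A box, as its sequence above shows. C02B4.t1, also among the 10 highest, had no B box match by this rule.

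All 20 isotypes on X had at least 1 gene with a peak, but their shares differed. Glycine had the most, with 10 of 20 genes (exact 95% interval 27.2 to 72.8%), led by M02F4.t1. Proline had 8 of 20, led by the divergent pair F46G11, and serine 8 of 18, led by F02D10.t2. The summit of F02D10.t2, at 269.9, was shared with the glutamate gene rte-5. By the high-ranking candidates of replicate 1, serine had 3. With every summit given to its nearest gene, proline and serine had 5 each. Glutamate had 7 of 23, glutamine 7 of 15 and lysine 7 of 18 (4 by the high-ranking candidates of replicate 1). By the nearest-gene rule, glutamate and glutamine also had 5 each. The highest glutamine gene was R04A9.t1 at 268.0, with 138.6 in replicate 1 and 136.5 in replicate 2, and the highest lysine gene C33G3.t2 at 266.8, with 114.2 and 157.1. Alanine had 6 of 13, leucine 6 of 17 and aspartate 5 of 12. The highest aspartate gene was F38G1.t2, in an intron of the fibroblast growth factor gene egl-17, at 231.7, with 130.3 and 95.95.

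Isotypes with few genes on X also reached high signals. sup-7, whose mutant alleles are known as suppressors of amber stop codons, is a tryptophan gene in an intron of C03B1.2. It had 264.1, with 136.8 in replicate 1 and 130.2 in replicate 2, and was the sole tryptophan gene of 5 with a peak. R11.t1, tyrosine, had 251.7, with 127.8 in each replicate, and ZK563.t1, threonine, had 230.0, with 126.9 and 96.54. T28B4.t1, phenylalanine, in an intron of the F-box gene fbxl-4, had 214.9, with 111.9 and 101.0. It was the sole phenylalanine gene of 6 with a peak, and 2 were near high-ranking candidates of replicate 2. C06G1.t1, histidine, at 196.2, with 118.0 and 88.76, was the sole one of 9, and 2 were near high-ranking candidates of replicate 2. F12D9.t1, cysteine, reached 192.9, with 83.65 and 106.9, and C03F11.t1, methionine, 185.7, with 93.20 and 89.46. Of 7 cysteine genes 3 carried a peak (42.9%, 9.90 to 81.6%), and 1 was near a high-ranking candidate of replicate 2. On the autosomes 6 of 6 cysteine genes carried a peak (100%, 54.1 to 100%). Threonine had 4 of 14 on X, against 12 of 20 on the autosomes, and asparagine, the other way, 3 of 6 against 1 of 14. The X and autosomal intervals of each overlapped, and these differences were not tested.

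Arginine was the most numerous isotype on X and had one of the lowest shares with a peak. Of 27 arginine genes 4 carried one (14.8%, 4.19 to 33.7%), against 8 of 17 on the autosomes (47.1%, 23.0 to 72.2%). No pooled candidate came near 16 of the 27. Of the 6 X genes with anticodon TCG none carried a peak and 5 had no pooled candidate, while all 3 autosomal TCG genes carried one. Of the 13 with ACG 3 carried a peak, against 2 of 6 on the autosomes. The X and autosomal intervals for arginine overlapped, and the difference was not tested. Valine had a similar share: 2 of 14 X genes carried a peak (14.3%, 1.78 to 42.8%), against 4 of 17 autosomal ones (23.5%, 6.81 to 49.9%). By the high-ranking candidates of 1 replicate the valine count was 1 in replicate 1 and 4 in replicate 2. A pooled candidate lay near 12 of the 14 valine genes. None of the 10 with anticodon AAC carried a thresholded peak, though 2 of them were high-ranking in replicate 2, and the 9 with a candidate lay between 50.68 and 107.5.

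An anticodon could be read from the sequence for 268 of the 273 X genes with an isotype, which gave 44 anticodons. At least 1 gene of 36 of them carried a peak. The 8 anticodons with none were held by 1 to 10 genes each, with valine AAC and arginine TCG the most numerous. Some genes of arginine TCT, leucine TAG, proline CGG, threonine TGT and valine AAC were still near a high-ranking candidate of 1 replicate. Glutamate TTC had a peak at 4 of 8 X genes, against 1 of 9 autosomal ones, and glutamate CTC had one at 3 of 15 X genes, against 3 of 9, so the order of the 2 anticodons differed between X and the autosomes. These counts were not tested. Both proline AGG genes with a candidate, C16B8.t2 and C16B8.t3, shared a peak of 255.6, with 161.0 in replicate 1 and 104.0 in replicate 2.

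**Figure D3:**
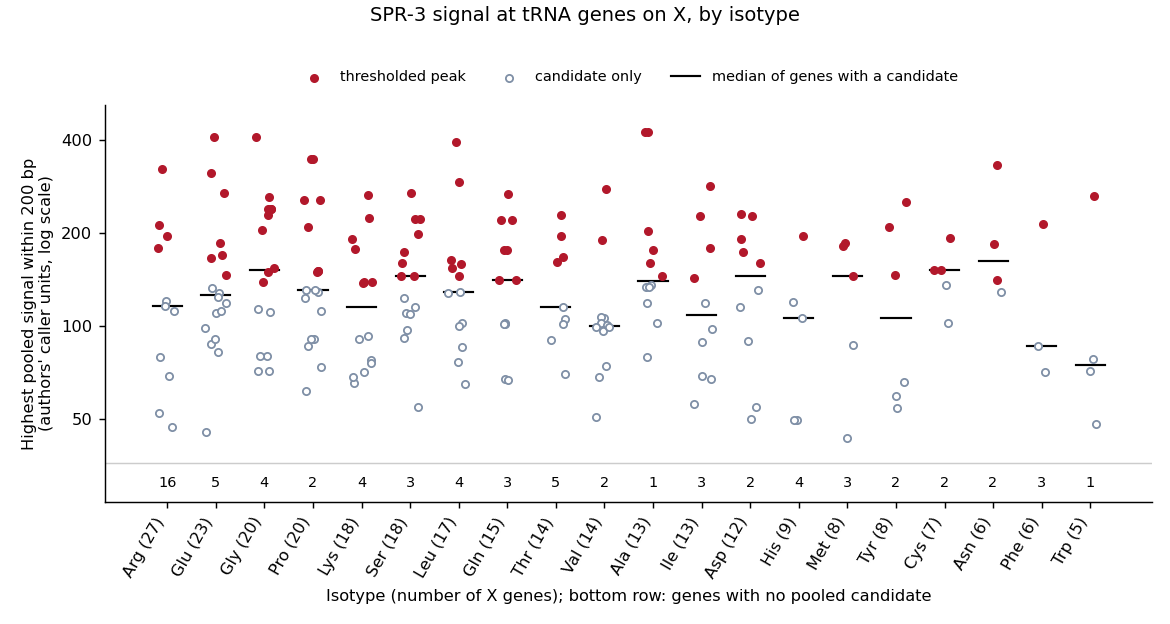
Highest pooled signal within 200 bp of each X tRNA gene (y axis, caller units, log scale) by isotype (x axis, number of X genes in parentheses); filled points carry a thresholded peak, open points a candidate only, lines are medians over genes with a candidate, and the row at the bottom counts genes with none. Every isotype holds at least 1 filled point and most span a wide range, and arginine has the most genes in the bottom row, 16 of 27.

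The share of X tRNA genes with a peak was lower among genes with a sequence of their own than among repeated ones. Their intervals did not overlap, but they take genes as independent, while identical copies share reads and some neighbours share a summit. A gene was counted as unique when no other nuclear tRNA gene had the same mature sequence. Of 53 unique X genes 7 carried a peak (13.2%, 5.48 to 25.3%), against 86 of 223 repeated ones (38.6%, 32.1 to 45.3%). With 2 to 7 copies in the genome the count was 14 of 38 (36.8%), and with 8 or more 72 of 185 (38.9%). The autosomes had the same order, with 15 of 77 unique genes (19.5%, 11.3 to 30.1%) and 90 of 259 repeated ones (34.7%, 29.0 to 40.9%), and there the intervals overlapped. With every summit given to its nearest gene, 4 of the 53 unique X genes had one (7.55%), against 75 repeated ones (33.6%). With copies counted on X alone, 15 of 70 unique genes did (21.4%), against 78 of 206 repeated ones (37.9%). The difference was not tested. In replicate 1 high-ranking candidates lay near 5 unique X genes, against 79 repeated ones, and in replicate 2 near 7, against 78. A pooled candidate was near 28 of the 53 unique genes (52.8%), against 174 of the 223 repeated ones (78.0%).

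Identical copies share the reads that fall within the gene. How such reads were placed is not stated in the sources used here, and their part in this difference was not tested. The flanks are different: over the gene with 25 bp on each side, only F28H6.t3 and F28H6.t4 were identical to another X or autosomal tRNA gene. Most unique genes were near copies, with a median of 1 edit to the nearest other tRNA gene (29 of 53 at 1 edit, at most 41). Among those within 5 edits 6 of 43 carried a peak, and among the more diverged 1 of 10 did. The 7 unique genes with a peak, chosen after their values were seen, were C16B8.t2, C16B8.t3, R11B5.t2, R02E12.t1, H08J11.t2, K02A4.t1 and Y7A5A.t1.

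Signal differed between genes of identical sequence. X holds 104 distinct mature sequences, and 34 of them occur in families of 2 or more identical X genes, 206 genes in all. Each of the 20 families with 5 or more X genes had members with and without a peak. Among the members with a pooled candidate the highest signal was 1.88 to 8.99 times the lowest (median 4.04). In 18 of the 20 families other members had no pooled candidate. That is not a measured low signal, so the spread over all members is not known. In proline TGG, the largest, with 13 copies on X and 11 on the autosomes, 6 X genes carried a peak. Its signals ran from 61.87 at ZK678.t3 to 347.3 at the F46G11 pair. The summit of 347.3 lay 34 bp from F46G11.t2 and 156 bp from F46G11.t1, which had another pooled summit inside it. C48C5.t3 had no candidate in the pool or in replicate 2, but had 112.4 in replicate 1, shared with C48C5.t1. ZK678.t3 had 39.10 in replicate 1 and none in replicate 2. H06A10.t1 had 210.0, with 88.23 and 99.47, and ZK899.t1 had 149.9, with 77.07 and 76.91.

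The widest spread was in glutamate CTC, from 45.52 to 409.2 over 9 of 12 genes, with 3 carrying a peak. The summit of 409.2 lay 89 bp from M02F4.t2 but 28 bp from the glycine gene M02F4.t1. That of rte-5, at 269.9, lay 118 bp from it but 7 bp from the serine gene F02D10.t2. Neither summit can be assigned to the glutamate gene, so this spread may include signal of neighbours. Over members with a candidate glycine TCC had the highest family median, 239.4, with 6 of 11 genes carrying a peak. Histidine GTG had the lowest, 78.0, with 1 of 8. The 5 of 7 cysteine GCA genes with a candidate lay between 102.5 and 192.9, 1.88-fold, and the remaining members had none.

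Genes of families found on X alone had a lower share with a peak than those of families shared with the autosomes, with intervals that overlapped. Of 28 genes whose identical copies all lie on X 5 carried a peak (17.9%, 6.06 to 36.9%), against 81 of 195 genes with an autosomal copy (41.5%, 34.5 to 48.8%). Most of the 28 belong to a pair of families. Arginine ACG has 10 copies, of which 3 carried a peak, led by C18A11.t2 at 323.4, and 4 had no pooled candidate. Leucine AAG has 9 copies, of which 2 carried one, with signals from 76.61 to 159.3 at C04E7.t1. These are few families, so the count rests on a handful of sequences. The 28 include 10 arginine ACG, 3 arginine TCG and 2 arginine TCT genes, so this contrast is not separate from the low arginine share given above.

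**Figure D4:**
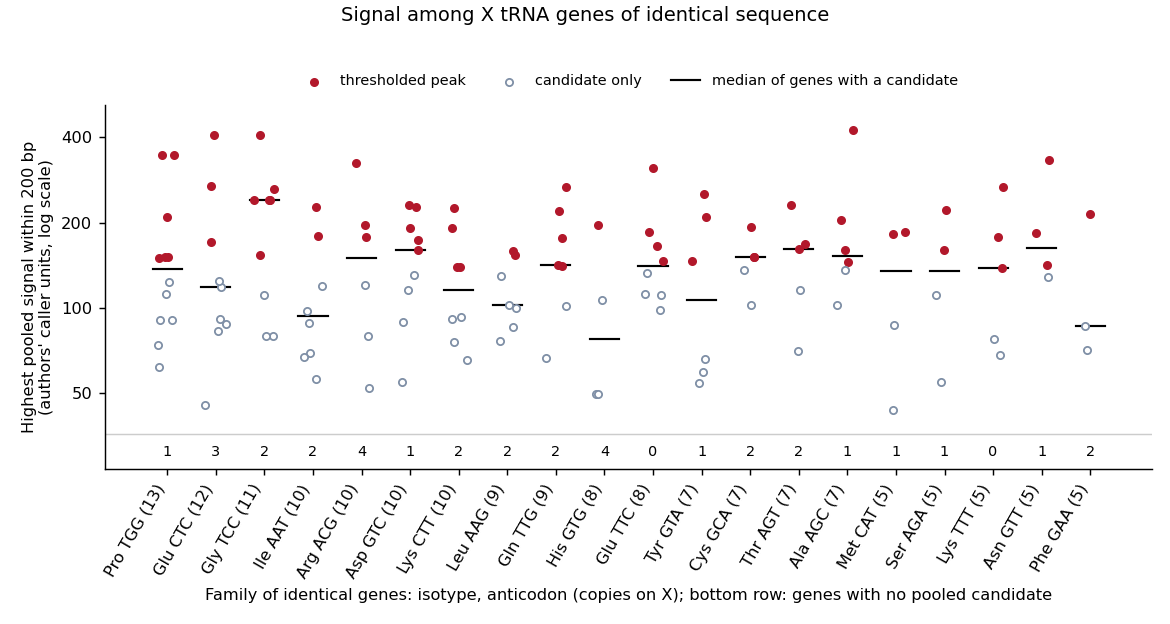
Highest pooled signal (y axis, caller units, log scale) of each gene in the 20 families with 5 or more X tRNA genes of identical mature sequence (x axis, number of X copies in parentheses); filled points carry a thresholded peak, open points a candidate only, lines are medians over genes with a candidate, and the bottom row counts genes with none. Each family holds both kinds of point, and glutamate CTC has the widest range, from 45.52 to 409.2. The value of 409.2 is from a summit shared with a glycine gene.

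Of the X tRNA genes, 141 stood alone and 135 lay in clusters, defined by gaps of at most 1000 bp. There were 54 clusters, of which 39 were pairs and 15 held 3 or more genes. Of the genes that stood alone 55 carried a peak (39.0%, 30.9 to 47.6%), against 38 of those in clusters (28.1%, 20.8 to 36.5%). Pairs had 26 of 78 (33.3%) and larger clusters 12 of 57 (21.1%, 11.4 to 33.9%). On the autosomes the order was the other way, with 69 of 235 genes alone (29.4%, 23.6 to 35.6%) and 36 of 101 in clusters (35.6%, 26.4 to 45.8%). The X contrast moved with the definition. With gaps of 500 bp the shares were close, with 57 of 168 genes alone (33.9%), against 36 of 108 in clusters (33.3%). With gaps of 5000 bp they were 38 of 97 alone (39.2%), against 55 of 179 in clusters (30.7%). With every summit given to its nearest gene, 55 of 141 genes alone had one (39.0%), against 24 of 135 in clusters (17.8%). These differences were not tested. Counted by locus, 24 of 54 X clusters held a gene with a peak (44.4%), against 40.5% of all 195 loci.

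The largest clusters held 6 genes each. In F28H6.t2 to F28H6.t7 all 6 genes are histidine GTG of identical sequence, laid out as inverted pairs, and none carried a peak. A candidate of 49.60 lay near F28H6.t2 and F28H6.t7, with 40.91 in replicate 2 and none in replicate 1. In F22F1.t2 to F22F1.t7, a row of serine, aspartate, methionine and isoleucine genes, the serine gene F22F1.t2 and the aspartate gene F22F1.t3 shared a peak of 160.0, with 73.28 in replicate 1 and 88.14 in replicate 2. F22F1.t7, isoleucine, had a candidate of 119.2 and F22F1.t5, aspartate, had a candidate of 50.01, and F22F1.t4 and F22F1.t6 had none in the pool.

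The 14 thresholded summits near 2 genes lay between the genes in 13 cases. The gaps between these genes ran from 86 to 348 bp. In 8 cases the genes were divergent, in 4 they pointed the same way and in 2 they were convergent, and in 11 both genes had the same isotype. Among all 81 neighbouring X tRNA genes within 1000 bp of each other, a peak was near 1 or both genes in 14 of 25 divergent, 11 of 39 same-direction and 6 of 17 convergent pairs. A summit in such a gap cannot be assigned to either gene, and identical neighbours cannot be told apart.

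Intronic and intergenic X tRNA genes had similar shares with a peak. Of 95 tRNA genes in introns of protein-coding genes 34 carried a peak (35.8%, 26.2 to 46.3%), against 58 of 180 intergenic ones (32.2%, 25.5 to 39.6%). On the autosomes 54 of 188 intronic genes did (28.7%), against 49 of 139 intergenic ones (35.3%). The count was 18 of 50 for X genes on the strand of the host and 16 of 45 on the opposite strand. The 95 genes lay in 67 hosts, 16 of which held 2 or more. The intervals of all these classes overlapped. None of the X tRNA genes lay within 25000 bp of spr-3 itself, the nearest being 69008 bp away.

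**Figure D5:**
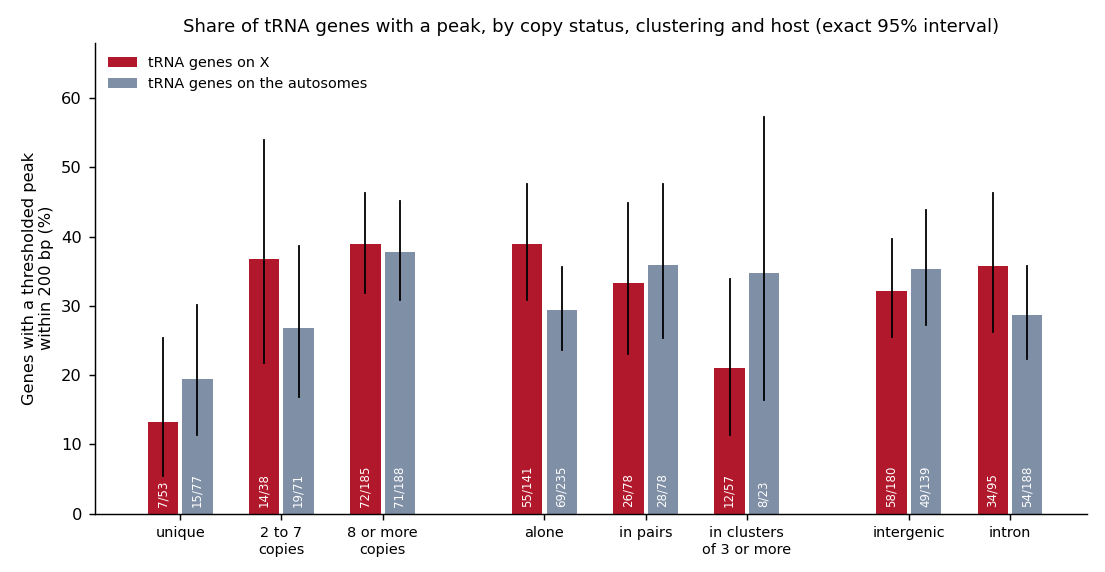
Percentage of tRNA genes with a thresholded peak within 200 bp (y axis) by number of identical copies, clustering and host, for X (left bar of each pair) and the autosomes (right bar), with exact 95% intervals over genes and the counts printed in the bars. Unique genes have the lowest bars in both sets, 7 of 53 on X and 15 of 77 on the autosomes.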

How the data were processed

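The authors deposited narrowPeak intervals on ce11 for each replicate, for the pool and for the optimal IDR-thresholded set, per the file headers. Column 7 is the signal the authors' caller gave each interval, the deposited −log10 q-values were only described, and the deposited summit offset in another column places the summit. Which aligner, caller, versions and IDR cutoff were used is not stated in the sources used here. The files used hold no read counts, so the depth is unknown and signal was not compared between lists.

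Genes came from Ensembl release 115, and isotypes, exons and sequences from RefSeq WBcel235, matched by WormBase ID for all 612 nuclear tRNA genes. Each gene was scored by the highest signal of a summit within 200 bp in each list. The scoring was checked on simulated data. Copies are identical mature sequences, clusters join gaps of up to 1000 bp, and edit distances came from edlib 1.3.9.post1. Shares carry exact Clopper-Pearson 95% intervals (scipy 1.17.1), and no test was made, since there is 1 group. The text names the 10 gene groups of highest signal, the highest gene of each isotype, genes at both limits, the largest clusters and family, and others as examples within a described class. The members were set by annotation alone, but the part examined and the lists were chosen with earlier results of these data known. Alternatives were other distances, interval overlap, a shorter list, nearest-gene assignment, other gaps and copy rules, and each replicate alone. 1 replicate-2 offset lay outside its interval, near 0 X tRNA genes.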

Additional observations from a re-analysis of the deposited data

How the results depend on the processing

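No paired analysis was possible because there was 1 group. The count of 93 X tRNA genes with a peak was 82 at 100 bp, 104 at 500 bp and 92 by interval overlap. It was 37 with the summit inside the gene, against 46 on the autosomes, and 91 for pooled candidates on X. With the 472 highest peaks it was 52, against 56 on the autosomes, with 3 unique, 49 repeated, 22 clustered, 30 lone, 15 intronic and 36 intergenic X genes. Giving each summit to its nearest gene left 4 unique and 24 clustered genes with a peak. With identity required over the 25-bp flanks, all 93 were unique and 0 repeated, and with copies counted on X alone 15 of 70 unique genes had a peak (21.4%), against 78 of 206 repeated ones (37.9%). Hosts on the same strand had 18 and on the opposite strand 16. With 472 candidates per replicate, 36 genes were high-ranking in both replicates. The median signal was 101.3 with genes lacking a candidate at 0, and 63.65 to 69.29 in single replicates on their own scales. The median position was 32 bp by thresholded summits and 27 to 28 bp in single replicates. With 1 replicate left out, counts ran from 84 to 85 on X, 92 to 99 on the autosomes, 5 to 7 unique, 78 to 79 repeated, 31 to 32 clustered, 53 to 53 lone, 29 to 32 intronic and 51 to 55 intergenic. Of 80 isotype counts under alternatives 22 moved by over 1.5 times. The causes were not tested. Depth is unknown, so a gene without a candidate is not shown to be unbound.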

Other observations

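X tRNA genes with an intron, which is spliced out of the precursor, carried a peak in 6 of 12 cases (exact 95% interval 21.1 to 78.9%), against 3 of 17 on the autosomes (17.6%, 3.80 to 43.4%). The median signal of those with a candidate was 155.1 on X, against 126.9 on the autosomes. The intervals overlapped and the difference was not tested. Along X cut in 3 equal parts, 24 of 51 tRNA genes in the first part carried a peak (47.1%, 32.9 to 61.5%), in the middle part 32 of 107 (29.9%, 21.4 to 39.5%) and in the last part 37 of 118 (31.4%, 23.1 to 40.5%). The 3 X genes without an isotype, C28G1.t5, F47E1.t3 and K02D3.t1, had no pooled candidate.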
